A study of Rattus norvegicus with 9 samples.

Results

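Occlusion of the middle cerebral artery was compared with sham surgery in rat brain RNA, across all genes with a symbol. The comparison used 6 of the 9 libraries of the series, 3 labelled IR and 3 labelled Sham. IR libraries came from rats that underwent middle cerebral artery occlusion (MCAO), a model of ischemic stroke, and carried PBS (phosphate-buffered saline) as their treatment label. Rats of the Sham libraries had the operation with no occlusion, likewise with PBS as treatment label. Rats were assigned at random, per the labels. The other 3 libraries, from MCAO rats injected with nicotinamide mononucleotide, were left out of the comparison except in 1 alternative fit. The sources used here do not give the strain, sex or age, the brain region or hemisphere, the length of the occlusion or the time after surgery. Nor do the labels say whether each library was a separate animal, so p-values measure the spread between libraries, which may be technical. Rows sharing a symbol were summed, and genes with at least 1 TPM (transcripts per 1000000, a length-scaled share of each library) in at least 3 of the 6 libraries were kept. That left 10013 of 12609 symbols, and of the 2596 others 2023 were above 0 in at least 1 of the 6 libraries.

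When a brain artery is blocked, neurons in the territory it feeds lose oxygen and glucose, and the return of flow brings oxidative stress and misfolded proteins. Cells answer with heat shock factor, which switches on chaperones, with metallothioneins, which bind zinc and scavenge radicals, and with NRF2, which drives antioxidant enzymes. Microglia, the resident phagocytes of the brain, make complement C1q and respond to interferons, while immediate early genes and synaptic genes follow the activity of neurons. In bulk tissue, fewer cells of a type and less RNA per cell cannot be told apart, and this holds for every gene below.

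Each library summed to 1000000 TPM, and the depth behind the values is unknown. Genes at 1 TPM or more numbered 9877, 9756 and 9741 in the IR libraries, against 10049, 10045 and 10120 in the Sham libraries, so the groups did not overlap. IR 1 stood apart from the other IR libraries. Its Spearman correlation across genes was 0.978 with IR 2 and 0.979 with Sham 1, while IR 2 and IR 3 correlated at 0.991. On the first principal component, which held 53.3% of the variance, IR 1 lay at -3.87 and the other IR libraries at -33.4 and -30.7, against 25.4, 29.4 and 13.1 for the Sham libraries. Results are therefore also given without IR 1. Neurons, astrocytes, oligodendrocytes, microglia and endothelium were all represented by their defining genes. One astrocyte gene, the water channel gene Aqp4, was listed at 0 in Sham 3 and at 16.4 to 55.9 TPM in the other 5 libraries.

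Far more genes were lower than higher in IR. Of 10013 genes 128 rose and 571 fell at an adjusted p under 0.05 in limma, 1.28% and 5.7% of those tested and 6.98% together. At an unadjusted p under 0.05 there were 578 higher and 2577 lower genes. The 3 IR libraries lay above all 3 Sham libraries in 7.61% of genes and below them in 27.0%, 34.6% in all, the change was negative in 72.6%, and the groups overlapped in 0 of the 699 genes that passed. Changes of at least 1 on the log2 scale were found in 44 of the rising and 148 of the falling genes. Over all genes the median log2 change was -0.21, and the changes below are to be read against that value. The 50 most abundant genes held 12.95%, 14.2% and 14.2% of the TPM in the IR libraries, against 12.9%, 11.4% and 12.2% in the Sham libraries. Scaling the libraries by the median of ratios brought this median to -0.003 and gave 284 rising and 279 falling genes, 2.84% and 2.79%. With that scaling 118 of the 128 rises and 274 of the 571 falls were also called. Without IR 1 limma called 432 higher and 2215 lower genes, 4.31% and 22.1%, which included 127 of the 128 and all 571 of the 571. Leaving out another library removed most calls. Of the 699, 14 remained without IR 2, 21 without IR 3, 92 without Sham 1, 23 without Sham 2 and 182 without Sham 3. Passing in all 6 of these fits were 13 genes, of which Asb15, Gng13, H3f3c, Ifi27 and Mt2A were higher and Cpxm1, Eef2k, Ndufa10l1, Nrep, Rbm3, Rnase4, Rpl30 and Ttr lower in IR.

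**Figure D1:**
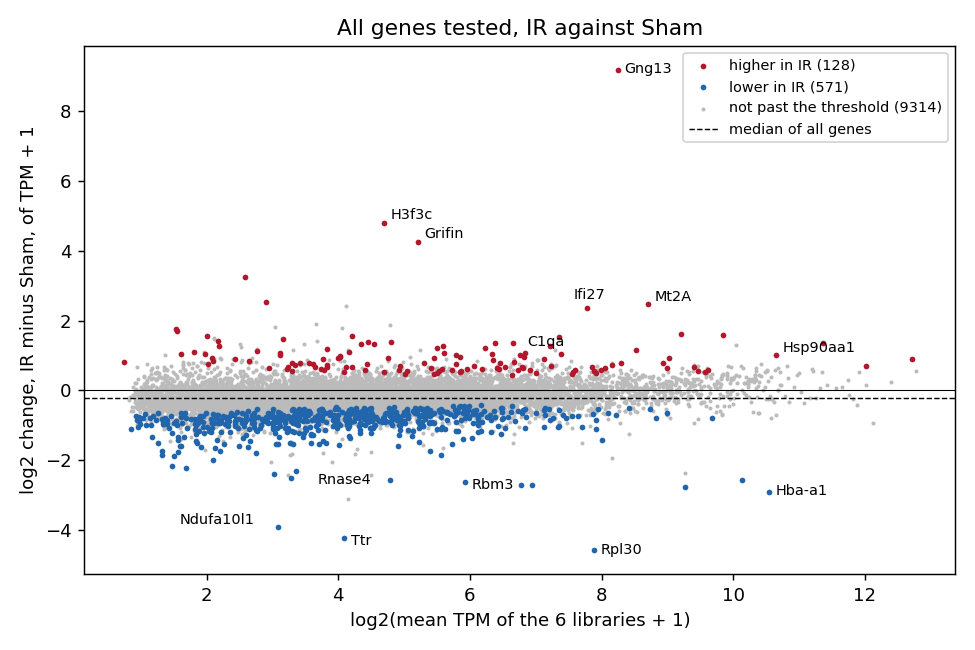
Each point is 1 of the 10013 genes, with its mean level over the 6 libraries, log2(TPM + 1), on the horizontal axis and its log2 change, IR minus Sham, on the vertical axis. The 128 rising genes (red) and 571 falling genes (blue) lie around a median change of -0.21 (dashed line), and Gng13, listed at 0 in every Sham library, is the highest point.

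Chaperones fold proteins and refold damaged ones. Of 26 cytosolic chaperones and co-chaperones 8 rose and the other 18 did not pass, against 1.28% of all genes. Their median change was 0.23 on the log2 scale and 0.45 with median-of-ratios scaling, against -0.21 and -0.003 for all genes. Hsp90aa1, the stress-inducible cytosolic HSP90, stood at 2043, 2069 and 2341 TPM in the IR libraries and at 1031, 1004 and 1165 TPM in the Sham libraries (adjusted p = 0.0133, log2 change 1.01, SE 0.13). Its group means differed 2.02-fold, and every IR library was higher than every Sham library. Genes of its co-chaperones and partners rose beside it. The HSP70 co-chaperone gene Dnaja1 had 431, 394 and 365 TPM in IR, against 236, 219.8 and 231 TPM in Sham (adjusted p = 0.0172, log2 change 0.79, SE 0.11). Cacybp, which encodes a calcyclin-binding protein, had 109.7, 114 and 108 TPM in IR, against 62.8, 62.2 and 64.8 TPM in Sham (adjusted p = 0.0130, log2 change 0.80, SE 0.09). In both genes the libraries of a group lay within a narrow band and the bands were well apart. The HSP90 activator gene Ahsa1 (log2 change 0.57), the HSP70-HSP90 adaptor gene Stip1 (0.48) and the immunophilin gene Fkbp4 (0.58) rose by less.

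Of the small heat shock proteins in that list, which hold unfolded proteins in solution, Cryab and Hspb8 rose and Hspb1 did not pass. Cryab, the alphaB-crystallin gene that glia express strongly, had 140.1, 90.02 and 82.7 TPM in IR, against 54.3, 47.2 and 30.9 TPM in Sham (adjusted p = 0.0453, log2 change 1.22, SE 0.27), with IR 1 the highest. Hspb8 was at 21.3, 19.6 and 20.4 TPM in IR and at 9.24, 9.51 and 11.5 TPM in Sham (adjusted p = 0.0153, log2 change 0.95, SE 0.13). Hspb1 had 50.1, 19.5 and 7.798 TPM in IR, against 3.67, 3.89 and 8.72 TPM in Sham (adjusted p = 0.108, log2 change 1.79, SE 0.62), with IR 1 far above the rest and IR 3 below Sham 3. In mitochondria 1 of 9 chaperones rose, the small chaperonin gene Hspe1, at 533, 790.0 and 721 TPM in IR, against 336, 328 and 401 TPM in Sham (adjusted p = 0.0335, log2 change 0.93, SE 0.18). Its partner Hspd1 narrowly missed the threshold, with 183, 153 and 155 TPM in IR, against 119.7, 119 and 110.0 TPM in Sham (adjusted p = 0.0512, log2 change 0.48, SE 0.11). Hspa8 and Hspa1b did not pass. The constitutive HSP70 gene Hspa8 had 2252, 1840.1 and 1933 TPM in IR, against 1890.4, 1794 and 1889 TPM in Sham (adjusted p = 0.580, log2 change 0.11, SE 0.13), and these groups overlapped. For the inducible HSP70 gene Hspa1b the values were 31.9, 16.6 and 14.7 TPM in IR, highest in IR 1, and 10.2, 12.5 and 9.75 TPM in Sham (adjusted p = 0.103, log2 change 0.83, SE 0.28). Every IR library of Hspa1b was above every Sham library. All 8 cytosolic chaperonin subunits had a positive change with a median of 0.17, limma called 0 of them, and 3 were higher at an unadjusted p under 0.05. Of the 9 calls named here, 9 remained without IR 1, 0 without IR 2, 0 without IR 3, 1 without Sham 1, 0 without Sham 2 and 4 without Sham 3 (adjusted p up to 0.166). Dnaja1 did not pass with the highest row per symbol.

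The promoters of 3 called chaperone genes are printed because they hold the letters that heat shock factor binds, inverted GAA units. A window from 250 bases before to 50 bases after the gene start, from RefSeq on the rat build GRCr8, could be matched for 7672 tested genes, 92 of them rising and 420 falling. GAANNTTC, a head-to-head pair of units read the same on both strands, stood in 16.3% of the windows of rising genes, 5.24% of those of falling genes and 5.61% of all tested windows. The tail-to-tail pair TTCNNGAA stood in 9.78%, 5.48% and 7.04%. A run of 3 adjoining units, which contains both, stood in 4 of the 92 rising and 1 of the 420 falling windows (4.35% and 0.238%), against 0.469% of the tested windows. Windows of Dnaja1, Hspb8, Stip1, Fkbp4, Cacybp and Hspe1 held such a pair and that of Ahsa1 did not. Hsp90aa1 and Cryab could not be matched to a window, so their promoters were not examined. The 3 windows below run 5′ to 3′ along the gene, with every pair in capitals. That of Dnaja1 is chr5:60638154-60638453, plus strand, that of Hspe1 chr9:64084077-64084376, plus strand, and that of Cacybp chr13:74981190-74981489, minus strand.
Dnaja1: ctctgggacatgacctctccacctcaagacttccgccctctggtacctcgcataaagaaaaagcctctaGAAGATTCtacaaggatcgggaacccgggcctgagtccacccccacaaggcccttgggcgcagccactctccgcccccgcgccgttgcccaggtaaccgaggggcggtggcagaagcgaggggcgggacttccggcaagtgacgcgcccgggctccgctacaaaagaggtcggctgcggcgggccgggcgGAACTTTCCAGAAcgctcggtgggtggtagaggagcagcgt
Hspe1: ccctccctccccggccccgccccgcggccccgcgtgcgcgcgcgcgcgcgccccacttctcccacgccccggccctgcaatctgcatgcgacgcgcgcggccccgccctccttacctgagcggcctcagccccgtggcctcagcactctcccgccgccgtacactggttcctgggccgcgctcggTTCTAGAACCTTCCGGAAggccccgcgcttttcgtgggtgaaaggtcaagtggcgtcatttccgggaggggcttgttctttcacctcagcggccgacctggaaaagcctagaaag
Cacybp: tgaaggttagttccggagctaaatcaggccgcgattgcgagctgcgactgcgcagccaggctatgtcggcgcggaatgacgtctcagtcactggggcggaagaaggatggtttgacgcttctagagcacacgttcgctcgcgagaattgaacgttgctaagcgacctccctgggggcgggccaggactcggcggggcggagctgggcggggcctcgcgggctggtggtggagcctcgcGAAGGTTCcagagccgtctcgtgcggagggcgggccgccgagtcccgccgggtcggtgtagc
In Hspe1 the pairs began 65, 60 and 55 bases before the gene start and formed 1 run. In Dnaja1 a pair began 181 bases before the start and a run of 3 units lay just after it, while the pair of Cacybp began 12 bases before it. A match of letters is a description of the window and not a binding site.

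All 3 metallothioneins tested rose. Mt2A, which stress hormones, metals and hypoxia can induce, had 727, 796 and 599 TPM in IR, against 148, 139 and 98.99 TPM in Sham (adjusted p = 0.00371, log2 change 2.46, SE 0.19), a 5.49-fold difference of the means that no single library carried. Mt1 had 165, 121 and 171 TPM in IR, against 54.8, 67.2 and 101 TPM in Sham (adjusted p = 0.0498, log2 change 1.06, SE 0.24), and its lowest IR library was above its highest Sham library. The neuronal and astrocytic member Mt3 was far more abundant, at 4397, 5186 and 5839 TPM in IR against 3119.9, 3034 and 3281 TPM in Sham (adjusted p = 0.0406, log2 change 0.70, SE 0.15). The 3 genes are short members of a family whose copies the authors' processing could have split, which leaves their values uncertain. The Mt2A window is printed for its matches of the core of the metal response element, TGCGCNC on either strand, in capitals, at chr19:10838659-10838958 of GRCr8, minus strand.
Mt2A: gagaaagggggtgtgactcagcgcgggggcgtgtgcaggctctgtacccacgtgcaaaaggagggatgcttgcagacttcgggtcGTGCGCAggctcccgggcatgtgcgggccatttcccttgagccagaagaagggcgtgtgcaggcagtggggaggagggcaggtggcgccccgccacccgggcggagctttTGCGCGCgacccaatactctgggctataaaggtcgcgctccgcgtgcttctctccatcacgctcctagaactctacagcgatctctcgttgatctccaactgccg
That core stood in 25% of the windows of rising genes and 27.6% of all tested windows, so it did not set the rising genes apart.

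Antioxidant genes under NRF2 held calls in both directions, with 2 of 26 higher and 2 lower. These were 7.69% each, against 1.28% higher and 5.7% lower of all genes, so the share of falls was near that of all genes. The quinone reductase gene Nqo1 had 16.3, 15.9 and 17.8 TPM in IR, against 8.36, 8.76 and 8.43 TPM in Sham (adjusted p = 0.0133, log2 change 0.89, SE 0.11), and the thioredoxin gene Txn1 had 511, 698 and 655 TPM in IR, against 398, 372 and 405 TPM in Sham (adjusted p = 0.0458, log2 change 0.65, SE 0.14). Both were higher in all 3 IR libraries. The 2 falling genes act on glutathione. Gss, which makes glutathione, had 8.49, 8.28 and 7.83 TPM in IR, against 13.6, 12.1 and 12.3 TPM in Sham (adjusted p = 0.0372, log2 change -0.57, SE 0.11), and Gstp1, which couples it to electrophiles, had 132, 122 and 141 TPM in IR, against 198, 185 and 202 TPM in Sham (adjusted p = 0.0324, log2 change -0.57, SE 0.11). Hmox1, the heme oxygenase gene and a classic NRF2 target, was at 6.495, 5.84 and 5.65 TPM in IR and 4.75, 4.68 and 5.13 TPM in Sham (adjusted p = 0.207). Among these 7 calls 6 remained without IR 1, 1 without IR 2, 1 without IR 3, 1 without Sham 1, 1 without Sham 2 and 3 without Sham 3 (adjusted p up to 0.176). Mt3, Txn1, Gss and Gstp1 did not pass with median-of-ratios scaling, and Mt1 and Mt3 did not pass with the highest row per symbol.

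The genes for all 3 chains of C1q, the complement starter that microglia make in brain, rose by similar amounts. C1qa had 151, 147 and 138 TPM in IR, against 65.2, 67.7 and 79.7 TPM in Sham (adjusted p = 0.0117, log2 change 1.03, SE 0.12). For C1qb the values were 74.4, 64.5 and 56.9 TPM in IR against 31.6, 27.7 and 32.2 TPM in Sham (adjusted p = 0.0136, log2 change 1.07, SE 0.13), and for C1qc 79.9, 76.7 and 61.5 TPM against 34.3, 28.7 and 43 TPM (adjusted p = 0.0274, log2 change 1.03, SE 0.18). Every IR library was above every Sham library in each. They were the 3 of 19 complement genes that passed (15.8% higher, against 1.28% of all genes), and the median change of that list was -0.17. Of 17 resting microglia markers 1 fell (5.88%, near the 5.7% of all genes), the transporter gene Slco2b1 (adjusted p = 0.0189, log2 change -0.78, SE 0.11). Of the 17, 8 lay below Sham in every IR library and 1 above, with a median change of -0.29. These were 47.1% and 5.88%, against 27.0% and 7.61% of all genes. Median-of-ratios scaling brought the median of the list to -0.08 and called Tyrobp, which encodes a microglial signalling adaptor, higher. At 43.5, 47.2 and 40.5 TPM in IR, against 23.2, 30.7 and 31.2 TPM in Sham, it did not pass on the TPM scale (adjusted p = 0.0523, log2 change 0.62, SE 0.15). The markers summed to 357, 373 and 384 TPM in IR, against 399.6, 442 and 441 TPM in Sham, without overlap, and to 345, 432 and 435 in IR, against 355, 398 and 439 in Sham, after that scaling, where the groups overlapped. Aif1, which encodes the microglial protein IBA1, was at 44.5, 48.6 and 38.99 TPM in IR, against 38.7, 42.4 and 47.9 TPM in Sham (adjusted p = 0.879, log2 change 0.03, SE 0.13). In the lysosome list of 31 genes the cysteine protease gene Ctss, another microglial product, had 239.8, 291 and 315 TPM in IR, against 150.4, 189 and 192 TPM in Sham (adjusted p = 0.0484, log2 change 0.67, SE 0.15), and the cholesterol carrier gene Npc2 had 59.3, 65.7 and 72.4 TPM in IR, against 108, 112 and 119.6 TPM in Sham (adjusted p = 0.0191, log2 change -0.78, SE 0.11). Their directions were opposite, and the change of Npc2 turned to 0.04 when the highest row per symbol replaced the sum.

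Of 26 genes that interferons induce 5 rose (19.2%, against 1.28% of all genes), and their list median was -0.09. Ifi27, a mitochondrial membrane protein gene, had 329, 386 and 384 TPM in IR, against 72.2, 63.3 and 77.4 TPM in Sham (adjusted p = 4.95e-04, log2 change 2.35, SE 0.12), the smallest adjusted p-value in the list. Its relative Ifi27l2b was at 33.1, 32.9 and 25.5 TPM in IR and 16.1, 7.02 and 11.3 TPM in Sham (adjusted p = 0.0369, log2 change 1.39, SE 0.27). Irf7, the regulator that amplifies interferon production, had 7.92, 7.62 and 5.72 TPM in IR, against 2.84, 3.76 and 3.82 TPM in Sham (adjusted p = 0.0383, log2 change 0.85, SE 0.17). Bst2, which tethers budding viruses, had 27.7, 25.1 and 17.4 TPM against 9.05, 8.34 and 14.3 TPM (adjusted p = 0.0472, log2 change 1.09, SE 0.24) and Ifi44 had 7.91, 8.62 and 8.94 TPM against 5.02, 4.901 and 5.12 TPM (adjusted p = 0.0307, log2 change 0.66, SE 0.12). The other 21 did not pass. GAAANNGAA, the core of the interferon response element on either strand, stood in 9.78% of the windows of rising genes, 5.24% of those of falling genes and 7.08% of all tested windows. Ifi27, Irf7, Bst2 and Ifi44 were among those with it. The Ifi27 window, chr6:128355062-128355361 of GRCr8, plus strand, holds it at 2 places, in capitals.
Ifi27: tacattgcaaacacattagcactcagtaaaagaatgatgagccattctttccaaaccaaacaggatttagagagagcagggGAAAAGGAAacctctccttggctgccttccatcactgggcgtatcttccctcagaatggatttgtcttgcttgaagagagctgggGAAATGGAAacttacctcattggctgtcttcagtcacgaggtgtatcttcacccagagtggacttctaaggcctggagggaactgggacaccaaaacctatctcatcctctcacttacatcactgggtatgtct
The inflammatory signal genes Il1b and Ccl2 were scarce in these libraries. As a whole the cytokine and chemokine list summed to 1018, 922 and 1044 TPM in IR, against 1174, 1127.5 and 1115 TPM in Sham. After median-of-ratios scaling these sums overlapped. Il1b was listed at 0 in the IR libraries, and Ccl2 had 1.24, 0.0779 and 0 TPM in IR against 0.294, 0 and 0 TPM in Sham, both below the filter. Of 16 cytokine and chemokine genes above it 2 fell (12.5%, against 5.7% of all genes). These were the receptor gene Il1r1 (adjusted p = 0.0327, log2 change -0.89, SE 0.17) and Cxcl12 (adjusted p = 0.0169, log2 change -0.80, SE 0.11), which endothelium and meninges make. When a library was left out, of these 13 calls 13 remained without IR 1, 1 without IR 2, 1 without IR 3, 3 without Sham 1, 1 without Sham 2 and 6 without Sham 3 (adjusted p up to 0.173). Ctss, Npc2, Cxcl12 and Il1r1 did not pass with median-of-ratios scaling, and C1qb, Ctss, Npc2 and Il1r1 did not pass with the highest row per symbol.

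Genes for the respiratory chain and for ribosomes leaned upward with few calls. Over all genes 27.4% had a positive change and 1.28% rose, with a median of -0.21. Genes of these lists are short. Median spans were 7128.5 bases for complex I, 6250 for complexes III and IV, 3131 for cytosolic ribosomal proteins and 6807 for mitochondrial ones, against 23734 for all genes. The shortest quartile of all genes had a median change of -0.05, and the part of gene span in these lists was not tested. Of 36 complex I genes 31 had a positive change with a median of 0.27, and 2 rose, Ndufa5 (adjusted p = 0.0444, log2 change 0.64, SE 0.14) and Ndufv3 (adjusted p = 0.0383, log2 change 0.49, SE 0.10). Of 21 complex III and IV genes 20 were positive with a median of 0.35. Cox7b, a small subunit of cytochrome oxidase, was the one that passed, at 935, 1575 and 1632 TPM in IR, against 412, 379 and 564 TPM in Sham (adjusted p = 0.0245, log2 change 1.59, SE 0.26), with IR 1 the lowest of the IR libraries. Cytosolic ribosomal protein genes had a median of 0.25, with 66 of 77 positive. In 10.4% of them every IR library lay above Sham, near the 7.61% of all genes. Their sums overlapped, with IR 1 at 60642 TPM and Sham 3 at 70523 TPM, and 1.3% rose, near the 1.28% of all genes. Rpl28 rose (adjusted p = 0.0397, log2 change 0.60, SE 0.12). Rpl30 had 18.8, 18.2 and 17.3 TPM in IR, against 425, 411 and 525 TPM in Sham (adjusted p = 2.52e-05, log2 change -4.56, SE 0.13), while its near copy Rpl30l2 had 619.5, 1113 and 954 TPM in IR, against 253, 254 and 346 TPM in Sham (adjusted p = 0.0193, log2 change 1.63, SE 0.24). The opposite directions of such near-identical copies are uncertain, because reads can be divided between them. Of 58 mitochondrial ribosomal protein genes 23 lay above Sham in every IR library (39.7%, against 7.61% of all genes), and 3 passed (3.45% higher and 1.72% lower, against 1.28% and 5.7%). Mrpl36 (0.60) and Mrps36 (0.45) were higher and Mrps10 (-0.67) lower. Without IR 1, 16 of the complex I genes, 13 of complexes III and IV and 36 of the cytosolic ribosomal protein genes were called higher. Glycolysis genes had a median of -0.17, limma called 0 of 20, and 5 were lower at an unadjusted p under 0.05. The same count for ATP synthase was 0 of 16, with 3 higher at an unadjusted p under 0.05. Of 37 proteasome subunit genes 1 rose, the ATPase gene Psmc6 (adjusted p = 0.0482, log2 change 0.50, SE 0.11). Of the 10 calls named here, 10 remained without IR 1, 1 without IR 2, 1 without IR 3, 1 without Sham 1, 1 without Sham 2 and 3 without Sham 3 (adjusted p up to 0.184). Mrpl36, Mrps10 and Psmc6 did not pass with median-of-ratios scaling, and Rpl28 and Psmc6 did not pass with the highest row per symbol.

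Some rising genes encode enzymes and signals outside these groups. Gpd1, a glycerol phosphate dehydrogenase that glucocorticoids induce in oligodendrocytes, had 158, 101 and 99.8 TPM in IR, against 48.5, 48.9 and 39.4 TPM in Sham (adjusted p = 0.0194, log2 change 1.35, SE 0.20). Cdkn1a, the cell cycle inhibitor p21 under p53, had 14.1, 10.8 and 10.4 TPM in IR, against 6.73, 6.39 and 6.56 TPM in Sham (adjusted p = 0.0360, log2 change 0.74, SE 0.15). IR libraries were above Sham libraries without overlap in both. The sulfotransferase gene Sult1a1 (1.39), the gamma-synuclein gene Sncg (1.54), the neurokinin B gene Tac3 (1.34), Plac8 (1.48) and the stress transcription factor gene Atf5 (1.04) rose by at least 1 on the log2 scale. In absolute terms the largest gain was that of Tmsb4x, which encodes the actin-binding thymosin beta 4, at 7155, 10029 and 9029 TPM in IR, against 5028, 4309 and 4709 TPM in Sham (adjusted p = 0.0327, log2 change 0.89, SE 0.17), summed over 46 table rows. Of 23 endoplasmic reticulum stress genes 1 rose, the chaperone partner gene Sdf2l1 (adjusted p = 0.0307, log2 change 0.93, SE 0.17). Among these 9 calls 9 remained without IR 1, 0 without IR 2, 0 without IR 3, 0 without Sham 1, 0 without Sham 2 and 4 without Sham 3 (adjusted p up to 0.176). Sncg did not pass with median-of-ratios scaling, and Sult1a1, Tmsb4x and Tac3 did not pass with the highest row per symbol.

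**Figure D2:**
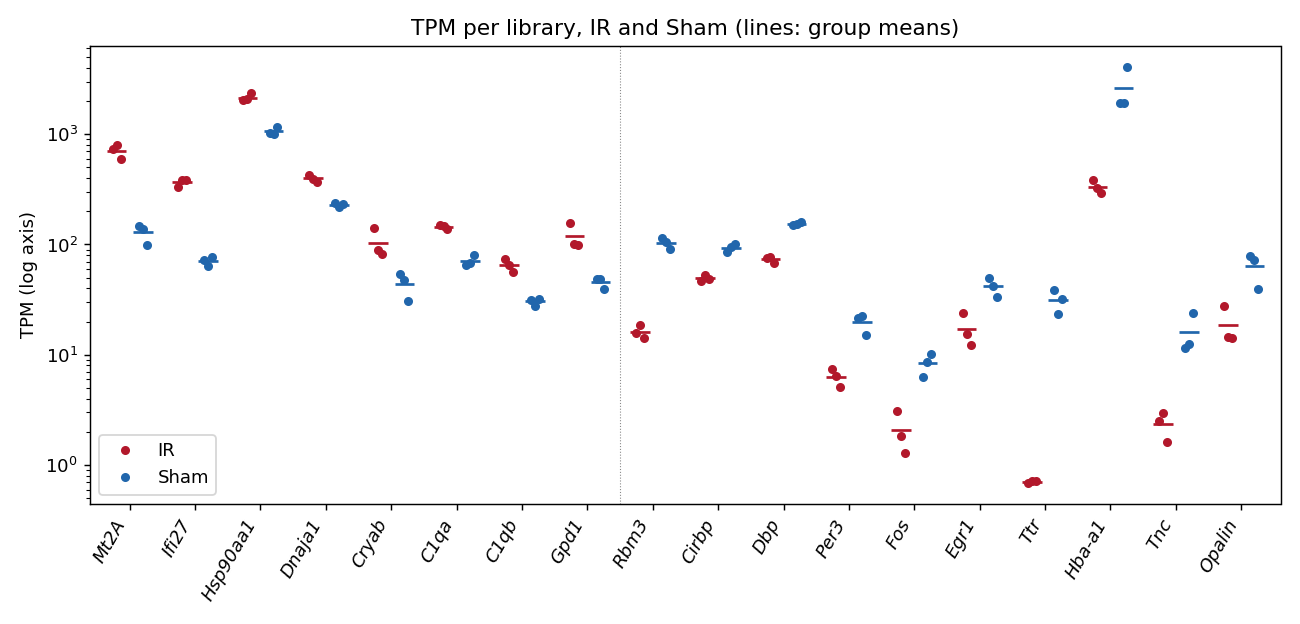
TPM on a log axis of 8 genes that rose (left of the dotted line) and 10 that fell (right), with each point 1 library, IR (red) left of Sham (blue), and each line a group mean. The groups do not overlap in any of the 18 genes, and Ttr at 0.690 to 0.720 TPM in IR is the lowest.

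Genes of cold-inducible RNA-binding proteins, which rise when tissue cools and of which RBM3 guards synapses in rodents, were lower in IR. Rbm3 had 15.9, 18.6 and 14.1 TPM in IR, against 114, 106 and 91.02 TPM in Sham (adjusted p = 5.62e-04, log2 change -2.61, SE 0.14), a 6.41-fold lower mean. Cirbp had 46.7, 53.04 and 49.1 TPM in IR, against 84.7, 95.02 and 102 TPM in Sham (adjusted p = 0.0139, log2 change -0.90, SE 0.12). In each gene the libraries of a group were close together and the groups far apart.

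The circadian clock times daily rhythms in every cell. Of 16 clock genes tested 6 fell (37.5%, against 5.7% of all genes) and 15 had a negative change (93.8%, against 72.6%), with a median of -0.64 and of -0.43 with median-of-ratios scaling. Dbp, a transcription factor that follows the clock, had 75.5, 76.4 and 67.5 TPM in IR, against 149, 155 and 159.9 TPM in Sham (adjusted p = 0.00716, log2 change -1.07, SE 0.10). Its relative Hlf had 23.9, 27.9 and 22.3 TPM in IR, against 52.95, 51.4 and 39.99 TPM in Sham (adjusted p = 0.0245, log2 change -0.93, SE 0.15). Per3, a period gene of the repressor arm, had 7.46, 6.47 and 5.11 TPM in IR, against 21.7, 22.4 and 15.1 TPM in Sham (adjusted p = 0.0153, log2 change -1.49, SE 0.20). No IR library came near the lowest Sham library in these 3 genes. Per1 (adjusted p = 0.0267, log2 change -0.73, SE 0.12), Cry2 (adjusted p = 0.0272, log2 change -1.003, SE 0.17) and Nr1d1, the gene of the repressor REV-ERB alpha (adjusted p = 0.0290, log2 change -0.91, SE 0.16), fell with them. Per2 had 7.99, 7.38 and 8.21 TPM in IR, against 9.898, 13.98 and 12.5 TPM in Sham (adjusted p = 0.0656) and the core activator gene Clock 12.9, 7.02 and 6.601 TPM against 14.2, 14.04 and 9.45 TPM (adjusted p = 0.242). The sources used here do not give the time of day at which tissue was taken. When a library was left out, of these 8 calls 8 remained without IR 1, 1 without IR 2, 1 without IR 3, 3 without Sham 1, 1 without Sham 2 and 6 without Sham 3 (adjusted p up to 0.133). Cirbp did not pass with median-of-ratios scaling, nor Per3 and Cry2 with the highest row per symbol.

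Neuronal activity and growth factors switch on immediate early genes within minutes. Of 30 tested 9 fell and the other 21 did not pass (30% lower, against 5.7% of all genes), 28 had a negative change, and 18 lay below Sham in every IR library (60%, against 27.0%), with a median of -0.60. Fos had 3.12, 1.85 and 1.28 TPM in IR, against 6.304, 8.58 and 10.2 TPM in Sham (adjusted p = 0.0238, log2 change -1.62, SE 0.26). Egr1 had 23.9, 15.4 and 12.2 TPM in IR, against 50.1, 41.9 and 33.3 TPM in Sham (adjusted p = 0.0390, log2 change -1.27, SE 0.26). Within IR the highest value of both was that of IR 1, still below every Sham library. The neuron-specific regulator gene Npas4 was at 1.28, 0.876 and 0.287 TPM in IR and 3.46, 2.96 and 4.07 TPM in Sham (adjusted p = 0.0285, log2 change -1.34, SE 0.24). Vgf, which encodes a secreted peptide precursor induced by activity, had 33.9, 27 and 29.6 TPM in IR, against 63.9, 55.02 and 80.4 TPM in Sham (adjusted p = 0.0195, log2 change -1.102, SE 0.17). Nr4a1 (-1.06), Nr4a2 (-0.76), Egr4 (-0.82), Btg2 (-0.91) and Junb (-0.60) made up the 9. The neurotrophin gene Bdnf, another activity target, had 31.5, 23.1 and 18.7 TPM in IR, against 33.7, 31.7 and 24.7 TPM in Sham (adjusted p = 0.347, log2 change -0.30, SE 0.21), and its groups overlapped. TGACGTCA, the cyclic AMP response element, stood in 2.17% of the windows of rising genes, 3.33% of those of falling genes and 3.35% of all tested windows. Of the 9 calls named here, 9 remained without IR 1, 0 without IR 2, 0 without IR 3, 0 without Sham 1, 0 without Sham 2 and 1 without Sham 3 (adjusted p up to 0.152). Junb, Nr4a2 and Btg2 did not pass with median-of-ratios scaling, and Nr4a2 and Btg2 did not pass with the highest row per symbol.

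Splicing factors and chromatin regulators shape and switch on transcripts in the nucleus. Of 53 splicing and hnRNP genes 9 fell and 1 rose, and 28 lay below Sham in every IR library (17% lower and 52.8% below, against 5.7% and 27.0% of all genes). Snrnp70, the U1 snRNP protein gene, had 127, 139.8 and 120.5 TPM in IR, against 231, 216 and 221 TPM in Sham (adjusted p = 0.0153, log2 change -0.78, SE 0.10), and Prpf8, at the core of the spliceosome, had 78.5, 54.7 and 61.8 TPM in IR, against 112, 118 and 109.5 TPM in Sham (adjusted p = 0.0312, log2 change -0.81, SE 0.15). Hnrnpc ran against them, with 312, 337 and 311 TPM in IR, against 216, 194 and 208 TPM in Sham (adjusted p = 0.0245, log2 change 0.63, SE 0.10). Falling SR and hnRNP genes were Srsf2, Srsf5, Srsf9, Hnrnpd and Hnrnpl, beside U2af2, with changes from -0.70 to -0.44. The list median was -0.33, and -0.12 with median-of-ratios scaling.

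Of 46 chromatin modifier genes 9 fell, 45 had a negative change and 26 lay below Sham in every IR library, with a median of -0.57 and of -0.36 with median-of-ratios scaling. These were 19.6%, 97.8% and 56.5% of the list, against 5.7%, 72.6% and 27.0% of all genes. The median span of the list was 76476 bases, against 23734 bases for all genes. The longest quartile of all genes, from 58622 bases, had a median change of -0.37, and the part of gene span in the list was not tested. Kmt2a, a histone H3K4 methyltransferase gene, had 14.1, 8.03 and 9.75 TPM in IR, against 22.6, 22.98 and 23.4 TPM in Sham (adjusted p = 0.0307, log2 change -1.08, SE 0.19), and its relative Kmt2c had 3.29, 2.98 and 2.57 TPM in IR, against 6.54, 7.91 and 6.43 TPM in Sham (adjusted p = 0.0184, log2 change -1.01, SE 0.15). The acetyltransferase gene Crebbp, a partner of CREB, had 11.01, 14.2 and 11.4 TPM in IR, against 21.5, 28.7 and 26.2 TPM in Sham (adjusted p = 0.0216, log2 change -1.003, SE 0.16). Their log2 changes lay between -1.08 and -1.003. Tet2, which oxidizes methylcytosine (-1.08), the H3K36 methyltransferase gene Nsd1 (-0.99), and Chd1, Arid1a, Hdac7 and Chd3, of chromatin remodelling and deacetylation, with changes from -0.94 to -0.67, also fell. Without IR 1, 33 of the 46 were lower. Among these 18 calls 18 remained without IR 1, 0 without IR 2, 0 without IR 3, 1 without Sham 1, 0 without Sham 2 and 3 without Sham 3 (adjusted p up to 0.184). Snrnp70, Hnrnpl, Srsf2, Srsf5, Srsf9, U2af2, Hdac7, Crebbp, Chd1 and Chd3 did not pass with median-of-ratios scaling, and Hnrnpl, Srsf2, Srsf5 and Crebbp did not pass with the highest row per symbol.

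Receptors and channels of neurons held a few calls, all of them lower. Their genes are long, with median spans of 319566 bases for the ionotropic glutamate receptors, 123249 for sodium and calcium channels and 88533 for potassium channels, against 23734 bases for all genes. The median changes of these lists were -0.48, -0.50 and -0.43, against -0.37 in the longest quartile of all genes, of which 8.60% fell, and the part of gene span in them was not tested. All 17 ionotropic glutamate receptor genes had a negative change, against 72.6% of all genes, and 2 fell (11.8%, against 5.7%). Grik3, a kainate receptor subunit, had 2.102, 1.67 and 1.65 TPM in IR, against 5.65, 9.29 and 7.53 TPM in Sham (adjusted p = 0.0133, log2 change -1.58, SE 0.19). The AMPA receptor subunit gene Gria4 had 13.98, 12.3 and 14.4 TPM in IR, against 19.5, 20.5 and 25.9 TPM in Sham (adjusted p = 0.0460, log2 change -0.65, SE 0.14). The groups did not overlap in either gene. The main forebrain subunit genes Gria1, at 254, 173 and 158 TPM in IR, against 301, 215 and 149 TPM in Sham (adjusted p = 0.719), and Grin1, at 218, 120.1 and 126 TPM in IR, against 239, 244 and 172 TPM in Sham (adjusted p = 0.201), overlapped. Among the metabotropic receptors 1 of 7 fell, Grm2, a presynaptic brake on glutamate release, at 9.405, 7.91 and 10.3 TPM in IR, against 30.2, 19.7 and 23.7 TPM in Sham (adjusted p = 0.0172, log2 change -1.31, SE 0.18). Of 18 GABA genes 1 fell (5.56%, near the 5.7% of all genes), the receptor subunit gene Gabrb2, at 60.02, 45.9 and 33.5 TPM in IR, against 94.5, 95.4 and 82.1 TPM in Sham (adjusted p = 0.0419, log2 change -0.99, SE 0.21).

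Of 39 potassium channel genes 5 fell (12.8%, against 5.7% of all genes), and 8 lay below Sham in every IR library (20.5%, against 27.0%). With median-of-ratios scaling 1 of the 39 was called lower. The 5 were led by the inward rectifier gene Kcnj4, at 21.3, 20.6 and 20.3 TPM in IR, against 54.9, 49.3 and 39.4 TPM in Sham (adjusted p = 0.0133, log2 change -1.16, SE 0.14). The others, Kcna4, Kcnc4, Kcnh3 and Kcnj9, changed by -0.66 to -0.59. Of 26 sodium and calcium channel genes 3 fell (11.5%). Cacng3, a subunit that also carries AMPA receptors to synapses, had 34.4, 36.9 and 25.05 TPM in IR, against 94.8, 92.6 and 67.8 TPM in Sham (adjusted p = 0.0176, log2 change -1.38, SE 0.19). The T-type calcium channel gene Cacna1g (-0.91) and the sodium channel gene Scn3a (-0.78) were the other calls. At the synapse itself 2 of 34 vesicle release genes, Unc13b (-0.78) and the beta-synuclein gene Sncb (-0.63), and 1 of 26 postsynaptic scaffold genes, Dlg1 (-0.66), fell. The shares of the vesicle and scaffold lists were near that of all genes, and without IR 1 they were 14 and 11 lower calls. General neuron markers summed to 10406, 7069 and 8213 TPM in IR, against 9946, 10389 and 8849.9 TPM in Sham, with overlap, and limma called 0 of 14, with 2 lower at an unadjusted p under 0.05. When a library was left out, of these 15 calls 15 remained without IR 1, 0 without IR 2, 0 without IR 3, 3 without Sham 1, 0 without Sham 2 and 4 without Sham 3 (adjusted p up to 0.185). Gria4, Scn3a, Cacna1g, Kcna4, Kcnc4, Kcnh3, Kcnj9, Unc13b, Sncb and Dlg1 did not pass with median-of-ratios scaling, and Cacna1g, Kcnj9, Unc13b and Dlg1 did not pass with the highest row per symbol.

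Some genes of blood vessels and of the matrix around cells fell. Of 25 endothelial markers 4 fell and 13 lay below Sham in every IR library (16% and 52%, against 5.7% and 27.0% of all genes), with a median of -0.46 and of -0.25 with median-of-ratios scaling. Tie1, a partner of the angiopoietin receptor, had 4.31, 4.02 and 3.89 TPM in IR, against 8.19, 10.4 and 11.3 TPM in Sham (adjusted p = 0.0162, log2 change -1.11, SE 0.15), and that receptor, Tek, had 12.1, 13.4 and 14.8 TPM in IR, against 25.5, 27.5 and 36.5 TPM in Sham (adjusted p = 0.0195, log2 change -1.08, SE 0.16). The VEGF receptor gene Kdr (-0.92) and the endothelial transcription factor gene Erg (-0.94) fell too. The tight junction gene Cldn5 was at 51.5, 55.6 and 44.2 TPM in IR, below the 59.04, 70.4 and 80.1 TPM of Sham, without passing (adjusted p = 0.0972, log2 change -0.46, SE 0.15). The markers summed to 261, 237 and 223 TPM in IR, against 294, 380.2 and 379.9 TPM in Sham, and the groups did not overlap, though with median-of-ratios scaling they did, and 2 endothelial and 3 matrix genes were then called lower.

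Of 35 extracellular matrix genes 5 fell (14.3%, against 5.7% of all genes). Tenascin C, Tnc, a glycoprotein of developing and injured brain, had 2.49, 2.95 and 1.63 TPM in IR, against 11.5, 12.6 and 24.1 TPM in Sham (adjusted p = 0.0148, log2 change -2.29, SE 0.29). Timp3, an inhibitor of matrix proteases, had 36.8, 27.96 and 36.7 TPM in IR, against 65.4, 72.5 and 94.8 TPM in Sham (adjusted p = 0.0208, log2 change -1.17, SE 0.18), and the membrane protease gene Mmp14 had 1.92, 0.885 and 1.01 TPM in IR, against 3.13, 4.098 and 4.15 TPM in Sham (adjusted p = 0.0337, log2 change -1.096, SE 0.21). The groups did not overlap in these genes, and Sham 3 was the highest library in all of them. The proteoglycan genes Agrn (-0.997) and Vcan (-0.69) completed the 5. From the pericyte and fibroblast lists Mcam (-1.12) and Bgn (-0.84) fell. Fibroblast and meningeal markers summed to 409, 628 and 478 TPM in IR, against 671, 636 and 3078 TPM in Sham, with Sham 3 far above the rest, and the part of such tissue in the matrix genes was not tested. Of the 11 calls named here, 11 remained without IR 1, 0 without IR 2, 0 without IR 3, 2 without Sham 1, 0 without Sham 2 and 4 without Sham 3 (adjusted p up to 0.183). Tek, Kdr, Agrn, Vcan and Bgn did not pass with median-of-ratios scaling, and Kdr, Erg, Vcan, Mmp14 and Bgn did not pass with the highest row per symbol.

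Among signalling genes of development, of 23 Wnt pathway genes 3 fell and 10 lay below Sham in every IR library (13% and 43.5%, against 5.7% and 27.0% of all genes). The receptor gene Fzd2 had 5.58, 3.13 and 4.07 TPM in IR, against 10.6, 10.8 and 7.89 TPM in Sham (adjusted p = 0.0377, log2 change -1.05, SE 0.21), and Axin2, a feedback target of the pathway, had 4.48, 4.15 and 3.79 TPM in IR, against 8.14, 7.92 and 6.93 TPM in Sham (adjusted p = 0.0282, log2 change -0.75, SE 0.13). The third was the transcription factor gene Tcf7l2, which is also a thalamic marker (adjusted p = 0.0408, log2 change -0.95, SE 0.20). Of 12 Notch genes 1 fell (8.33%), the target Hes5, at 19.97, 16.4 and 28.1 TPM in IR, against 41.01, 38.9 and 43.2 TPM in Sham (adjusted p = 0.0402, log2 change -0.93, SE 0.19). Of 33 genes of TGF-beta and BMP signalling 28 had a negative change (84.8%, against 72.6% of all genes), and 7 lay below Sham in every IR library (21.2%, against 27.0%). In that list 1 gene fell (3.03%, against 5.7%), the activin receptor gene Acvr2a (adjusted p = 0.0282, log2 change -0.76, SE 0.13). Among growth factors and their receptors the glial cell line-derived neurotrophic factor receptor gene Ret rose, at 5.83, 3.53 and 3.58 TPM in IR, against 1.32, 1.81 and 1.47 TPM in Sham (adjusted p = 0.0347, log2 change 1.05, SE 0.20), and the neurotrophic cytokine gene Cntf fell (adjusted p = 0.0372, log2 change -0.69, SE 0.14). Vegfa, which hypoxia induces, was at 99.2, 104 and 89.4 TPM in IR and 94.5, 134 and 95.04 TPM in Sham (adjusted p = 0.615, log2 change -0.12, SE 0.16). Among these 7 calls 7 remained without IR 1, 0 without IR 2, 0 without IR 3, 0 without Sham 1, 0 without Sham 2 and 0 without Sham 3 (adjusted p up to 0.160). Tcf7l2, Hes5, Acvr2a and Cntf did not pass with median-of-ratios scaling.

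**Figure D3:**
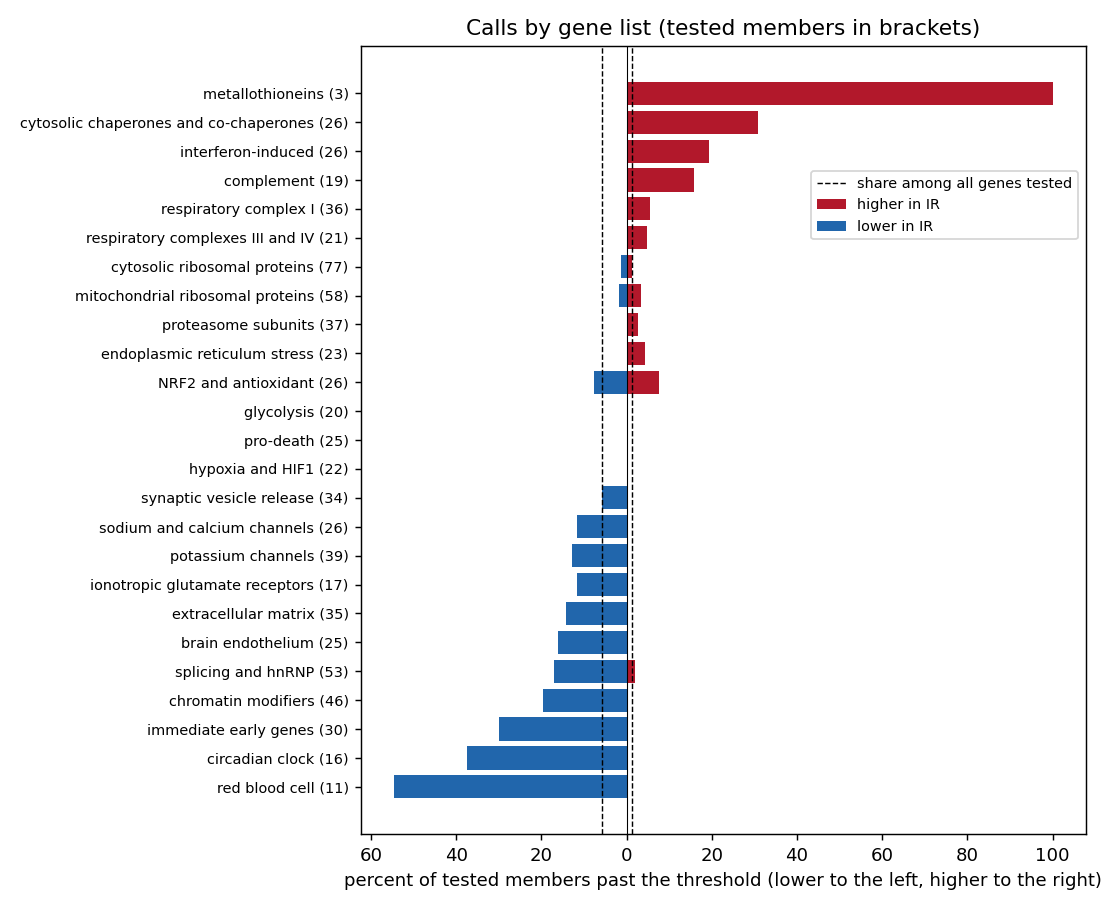
Percent of the tested members of each gene list that passed the test, falling in IR to the left (blue) and rising to the right (red), with the number tested in brackets. The dashed lines mark all genes, 5.7% falling and 1.28% rising, and 3 of 3 metallothioneins and 8 of 26 cytosolic chaperones extend right while 6 of 16 clock genes and 9 of 30 immediate early genes extend left.

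Markers of other compartments differed between the groups as well. Red blood cell genes fell in 6 of 11 (54.5%, against 5.7% of all genes), and 9 lay below Sham in every IR library (81.8%, against 27.0%). Hba-a1, an alpha globin gene, had 388, 323 and 291 TPM in IR, against 1906, 1909 and 4089 TPM in Sham (adjusted p = 0.0105, log2 change -2.89, SE 0.31), and the heme synthesis gene Alas2 had 1.98, 1.59 and 0.999 TPM in IR, against 8.57, 10.3 and 19.4 TPM in Sham (adjusted p = 0.0146, log2 change -2.38, SE 0.30). Sham 3 was the highest library of both, and all IR libraries were below all Sham libraries. Hba-a2 (-2.76), Hbb (-2.56) and Hbb-b1 (-2.699) also fell, and the globin copies are too alike for their reads to be told apart with certainty. Ttr, the carrier of thyroid hormone made by choroid plexus, had 0.6901, 0.7197 and 0.713 TPM in IR, against 38.3, 23.6 and 31.97 TPM in Sham (adjusted p = 1.76e-04, log2 change -4.22, SE 0.19), a 44.3-fold lower mean in IR. The ependymal gene Ccdc153 had 0.762, 0.817 and 1.03 TPM in IR, against 4.55, 2.54 and 5.75 TPM in Sham (adjusted p = 0.0272, log2 change -1.45, SE 0.25). The other choroid plexus genes Folr1 and Kl were below the filter, at 0.163 to 0.328 TPM in IR against 0.305 to 4.23 TPM in Sham for Folr1. The part of blood and choroid plexus RNA in the other changes was not tested.

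Among glia, all 18 oligodendrocyte and myelin markers had a negative change, against 72.6% of all genes. Their median was -0.86, and -0.64 with median-of-ratios scaling. Of the 18, 5 lay below Sham in every IR library (27.8%, against 27.0% of all genes) and 1 passed (5.56%, near the 5.7% of all genes). Opalin, a membrane protein gene of myelinating cells, had 27.7, 14.3 and 14.1 TPM in IR, against 78.1, 72.9 and 39.4 TPM in Sham (adjusted p = 0.0372, log2 change -1.72, SE 0.34). Mbp, a main myelin protein gene, had 4459, 2441 and 2291 TPM in IR, against 7629, 6483 and 3419 TPM in Sham (adjusted p = 0.145, log2 change -0.92, SE 0.37), with IR 1 above Sham 3. Summed over the markers this gave 8164, 4564 and 4388 TPM in IR, against 13519, 11495 and 6289.6 TPM in Sham, and without IR 1, 11 of the 18 were called lower. Of 20 astrocyte homeostatic genes 9 had a positive change (45%, against 27.4% of all genes), with a median of -0.13, against -0.21 for all genes. In this list 1 gene fell (5%, near the 5.7% of all genes), the amino acid transporter gene Slc7a10 (adjusted p = 0.0444, log2 change -0.76, SE 0.17). Gfap, the astrocyte filament gene that injury raises, had 2645, 1336 and 666 TPM in IR, against 801, 498 and 394 TPM in Sham (adjusted p = 0.134, log2 change 1.300, SE 0.50), and it ranged more within IR than between the group means. Of 14 striatal projection neuron markers 1 fell (7.14%, near the 5.7% of all genes), the dopamine receptor gene Drd1 (adjusted p = 0.0272, log2 change -1.16, SE 0.20). Of 13 markers of hippocampus, thalamus and hypothalamus 3 fell (23.1%, against 5.7% of all genes). These were Tcf7l2, the thalamic kinase gene Prkcd (adjusted p = 0.0304, log2 change -0.81, SE 0.15) and the orexin gene Hcrt, which had 0.254, 0 and 0 TPM in IR, against 6.53, 1.895 and 4.75 TPM in Sham (adjusted p = 0.0222, log2 change -2.21, SE 0.35). Limma called 0 of 11 cortical projection neuron markers, 0 at an unadjusted p under 0.05 as well. When a library was left out, of these 12 calls 12 remained without IR 1, 1 without IR 2, 1 without IR 3, 6 without Sham 1, 4 without Sham 2 and 7 without Sham 3 (adjusted p up to 0.169). Slc7a10, Drd1 and Prkcd did not pass with median-of-ratios scaling, and Hba-a2 did not pass with the highest row per symbol.

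**Figure D4:**
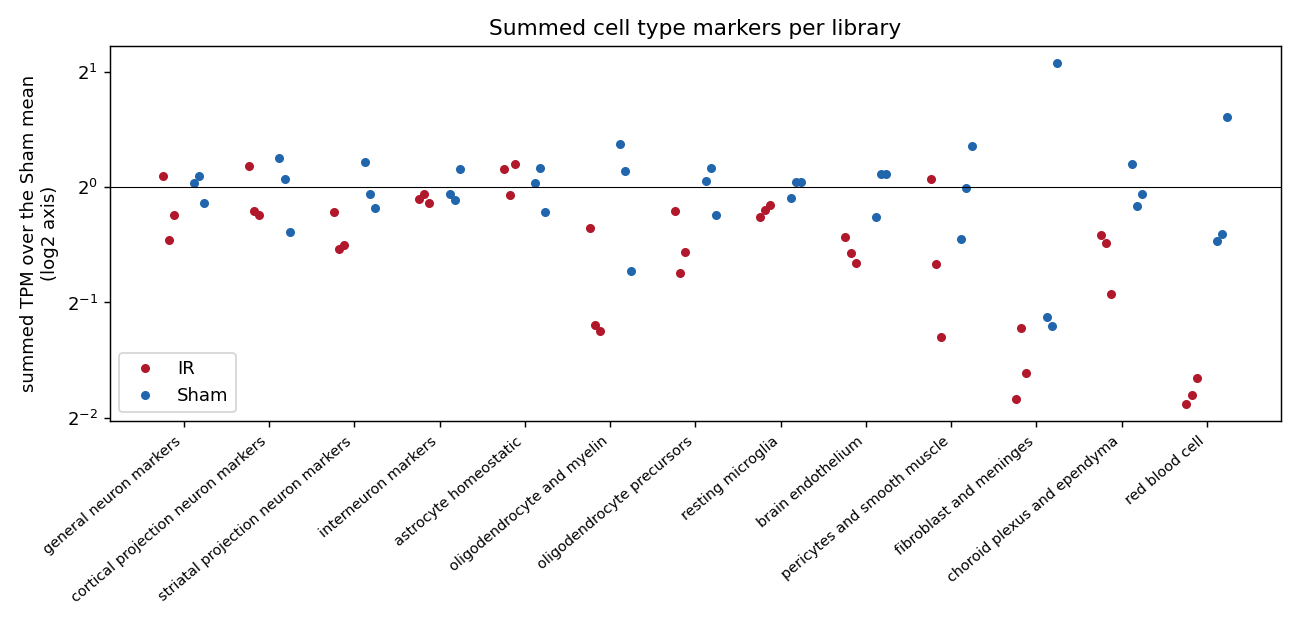
Summed TPM of 13 marker lists in each library, divided by the mean of the 3 Sham libraries (log2 axis), with IR (red) left of Sham (blue). IR lies apart below Sham for striatal, microglial, endothelial, fibroblast, choroid plexus and red blood cell markers, and overlaps it for general neuron, astrocyte and myelin markers. After median-of-ratios scaling the microglial, endothelial, fibroblast and choroid plexus sums overlap, the astrocyte sums lie apart above Sham, and the striatal and red blood cell sums stay apart below it.

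Lists for the processes that the title of the series names held few calls. Of 25 pro-death genes limma called 0, with 2 higher and 5 lower at an unadjusted p under 0.05. Their median change was -0.16. The pro-death list nevertheless summed to 1114, 1240 and 1339 TPM in IR, against 963, 829 and 970 TPM in Sham, without overlap. These sums also lay apart above Sham after median-of-ratios scaling. Of 14 survival genes limma called 0, with 6 lower at an unadjusted p under 0.05. Of 15 genes for neutrophil extracellular traps, webs of DNA that neutrophils release, 1 fell (6.67%, near the 5.7% of all genes). It was the actin crosslinker gene Actn1 (adjusted p = 0.0325, log2 change -0.60, SE 0.11). Of the 10 neutrophil markers measured, 4 passed the filter, and together the markers summed to 13.5, 16.9 and 13.6 TPM in IR, against 12.5, 15.3 and 17.6 TPM in Sham. The collagenase gene Mmp8 had 0, 0.0727 and 0 TPM in IR, against 0.137, 0 and 0 TPM in Sham. S100a9, a calcium-binding protein gene abundant in neutrophils, had 3.62, 5.47 and 5.24 TPM in IR, against 0.661, 3.72 and 5.13 TPM in Sham (adjusted p = 0.360, log2 change 0.65, SE 0.47), with overlap, and 1 marker fell, the haptoglobin gene Hp, at 0.536, 0.358 and 0.156 TPM in IR, against 4.45, 3.59 and 2.75 TPM in Sham (adjusted p = 0.0111, log2 change -1.76, SE 0.20). Of 22 hypoxia and HIF1 genes limma called 0, with 1 higher and 5 lower at an unadjusted p under 0.05, and Hif1a itself had 27.6, 20.3 and 21.2 TPM in IR, against 34.3, 31.3 and 28.3 TPM in Sham (adjusted p = 0.109, log2 change -0.44, SE 0.15).

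Long genes fell more often than short ones. Gene spans, from first to last base in RefSeq GRCr8, were known for 9869 tested genes. In the shortest quartile, up to 9913 bases, 2.31% rose and 4.21% fell, with a median change of -0.05. In the longest quartile, from 58622 bases, 0.162% rose and 8.60% fell, with a median change of -0.37. The middle quartiles lay between them, with medians of -0.15 and -0.24. Rising genes had a median span of 10554 bases and falling genes of 36046 bases, against 23734 bases for all. The gradient also stood within each quartile of expression level, from -0.21 to -0.41 in the lowest and from 0.07 to -0.29 in the highest. By library, the median deviation of the longest quartile minus that of the shortest was 0.09, -0.30 and -0.26 in IR, against 0.20, 0.27 and 0.01 in Sham. IR 1 thus lay above Sham 3, and the groups overlapped. The sources used here do not give the RNA integrity of each library.

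**Figure D5:**
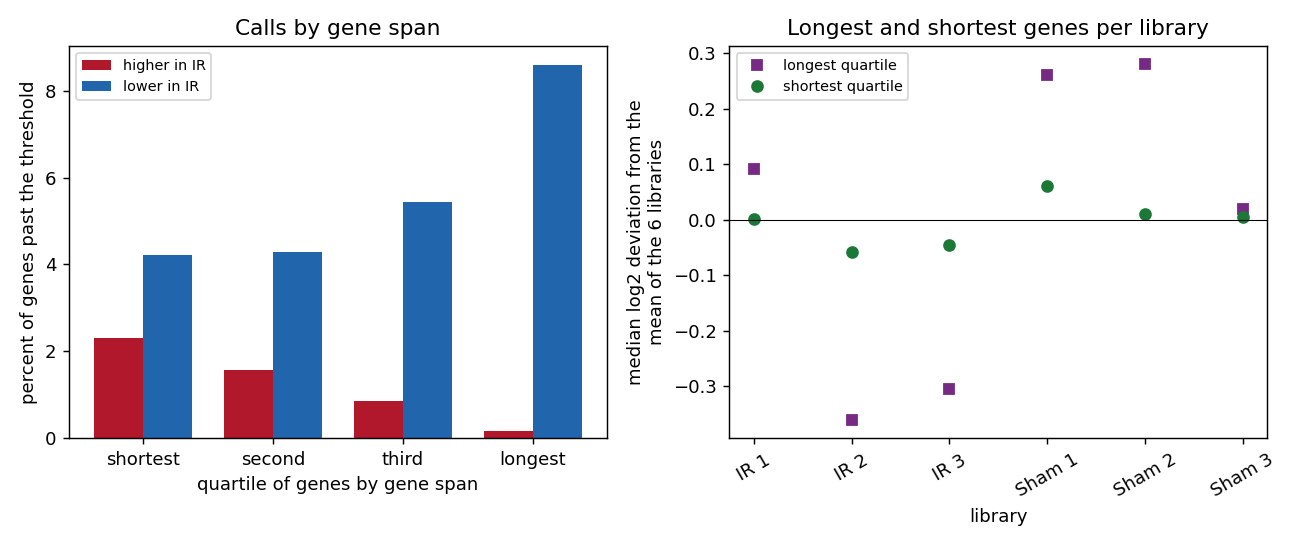
Left, percent of genes in each quartile by gene span that rose (red) or fell (blue) in IR. Right, median log2 deviation from the mean of the 6 libraries for the longest (squares) and shortest (circles) quartile in each library, where IR 2 and IR 3 show the longest genes at -0.36 and -0.30 and IR 1 at 0.09.

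Several of the largest changes are gathered here, and the quantification of some of these genes is uncertain. Gng13, a G protein subunit of taste and bipolar cells, had 346, 689 and 783 TPM in the IR libraries and was listed at 0 in all Sham libraries, so no fold is given. Both of its rows were switched, that is under 0.1 TPM in every library of one group and at 1 TPM or more in every library of the other. Such rows touched 96 tested genes and 17 of the 699 that passed, 3 higher and 14 lower. H3f3c, a copy of a histone H3.3 gene, had 51.1, 55.7 and 39.4 TPM in IR, against 0.949, 1.88 and 0 TPM in Sham (adjusted p = 0.00371, log2 change 4.79, SE 0.37). Grifin, a galectin-related lens protein gene, had 42.3, 67.04 and 98.3 TPM in IR, against 1.38, 2.42 and 4.18 TPM in Sham (adjusted p = 0.00662, log2 change 4.26, SE 0.37). Asb15, with a switched row, had 12.8, 8.75 and 7.98 TPM in IR, against 0.185, 0.159 and 0.0402 TPM in Sham (adjusted p = 7.51e-04, log2 change 3.24, SE 0.19), and Tcra-v22.1, a T cell receptor segment, 8.42, 13.5 and 13.5 TPM against 1.19, 1.65 and 0.776 TPM (adjusted p = 0.00716, log2 change 2.53, SE 0.23). On the falling side Ndufa10l1, a copy of a complex I gene, had 0.0658, 0 and 0.101 TPM in IR, against 15.6, 16.6 and 12.6 TPM in Sham (adjusted p = 9.99e-05, log2 change -3.91, SE 0.15). The ribonuclease gene Rnase4 had 5.86, 6.67 and 8.72 TPM in IR, against 46.6, 47.9 and 43.9 TPM in Sham (adjusted p = 7.51e-04, log2 change -2.56, SE 0.15), and Eef2k, the kinase that brakes translation elongation, had 6.102, 5.14 and 6.02 TPM in IR, against 19.2, 19.2 and 16.7 TPM in Sham (adjusted p = 0.00486, log2 change -1.52, SE 0.13). All IR libraries of both lay far below all Sham libraries. Zdhhc22 (-2.49), the adhesion gene Cdh13 (-1.596), Nrep (-1.86), which has a switched row, and Cpxm1 (-1.53) followed. Grifin, Tcra-v22.1, Zdhhc22 and Cdh13 did not pass without IR 2 (adjusted p up to 0.0563), nor Zdhhc22 and Cdh13 without Sham 2 (adjusted p up to 0.0755). Leaving Tcra-v22.1 aside, all 11 calls were kept with the highest row per symbol (adjusted p up to 0.0108). With switched rows left out 10 of the 11 were still tested, and all 10 were kept (adjusted p up to 0.0176).

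Measured in TPM, some of the largest losses did not pass the test. The lipoprotein gene Apoe had 2886, 3074 and 3827 TPM in IR, against 4291, 4241 and 4337 TPM in Sham (adjusted p = 0.117, log2 change -0.41, SE 0.15), and the glycolytic gene Aldoa had 1974, 1652 and 2014 TPM in IR, against 2278, 2364 and 2589 TPM in Sham (adjusted p = 0.124, log2 change -0.36, SE 0.13). Ptgds, the prostaglandin D synthase gene of meninges and oligodendrocytes, had 152, 139 and 146 TPM in IR, against 428, 407 and 2398 TPM in Sham (adjusted p = 0.0671, log2 change -2.35, SE 0.64), where Sham 3 alone made the group mean large. Groups did not overlap in these 3 genes. Of the amyloid precursor family App had 1299.7, 814 and 913 TPM in IR, against 1530.3, 1683 and 1354 TPM in Sham (adjusted p = 0.0920, log2 change -0.62, SE 0.20) and Aplp1 had 726, 525 and 556 TPM in IR, against 1163, 1057 and 864 TPM in Sham (adjusted p = 0.0481, log2 change -0.77, SE 0.18), of which only Aplp1 passed, and it did not with median-of-ratios scaling. Gains of that kind were those of the ribosomal protein gene Rps29, at 1474, 2344 and 2197 TPM in IR, against 1092, 1419 and 1308 TPM in Sham (adjusted p = 0.0967, log2 change 0.63, SE 0.21), and of the cytochrome oxidase gene Cox7a2, at 1284, 1877 and 2024 TPM in IR, against 924, 918 and 1192 TPM in Sham (adjusted p = 0.0676, log2 change 0.76, SE 0.21). Just inside the threshold stood Ccdc184, Clcn5 and Gtf2f1, at adjusted p-values of 0.0499, 0.0499 and 0.04996, and just outside it Tcf12, Arglu1 and Xrcc1, at 0.0501, 0.0502 and 0.0502. At the filter the third highest of the 6 values was 1.0019 TPM for Mns1, just inside, and 0.99574 TPM for Plcd1, just outside.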

How the data were processed

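RNA sequencing had been done on rat brain RNA amplified by the Smart-Seq2 method, with an RNA integrity number of at least 5.8, per the labels' protocols. The deposited table held TPM, normalized by the authors before deposit, so the depth per library is unknown and no counting interval is given. STAR, Cufflinks and hg38, a human build, stand in the submitters' processing notes for these rat samples, and the sources used here give neither versions nor the annotation. Of 131003 rows 27683 had a symbol, and these held 72.7% to 78.7% of the TPM of each library.

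From these values log2(TPM + 1) was fitted in R 4.3.3 with limma 3.58.1 (tables in Python 3.11.15) over the 6 IR and Sham libraries, with an intensity trend and robust moderation. Fold changes on this scale understate those of weakly expressed genes. P-values were two-sided and adjusted over all 10013 genes by the Benjamini-Hochberg method at 0.05. The test had been planned for TPM and was checked on simulated data. Named genes were the 15 largest rises and falls past the threshold with groups apart and the higher group at 10 TPM or more, the 10 largest TPM differences each way, up to 4 members with the smallest p per list, all members called, and 27 genes set for the question of the study. Genes named outside this rule (Asb15, Eef2k, Cpxm1, Hspd1, Per2 and Clock, and those without a value) were chosen after their values were seen. Some genes that the rule names are not reported here. The comparison, gene lists, motifs and naming rule were chosen with earlier results of these data known, and lists are described by counts and medians with no test of their own. Protein length had been planned as a gene property, and gene span in RefSeq GRCr8 was used in its place. Alternatives covered the pseudocount (0.1), the filter, 3 scalings, all 9 libraries, the moderation, the row per symbol, the replicate block, each library left out and a minimum change of 0.5.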

Additional observations from a re-analysis of the deposited data

Results flagged for a closer look

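Rows of the table without a gene symbol were used in no comparison. Of these, 16 stood at 10 TPM or more in every IR library and under 0.1 TPM in every Sham library, against 2 with the reverse pattern. The highest of the 16 averaged 840.4 TPM in IR, and together they averaged 1620.0 TPM. The 2 reverse rows summed to 49.9 TPM in Sham. Such rows resemble the switched rows of named genes, and their origin was not tested.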

How the results depend on the processing

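The 128 rising and 571 falling genes became 236 and 228 with quantile normalization and 284 and 279 with median-of-ratios scaling. Leaving out ribosomal protein and hemoglobin genes gave 192 and 859, and testing against a minimum change of 0.5 gave 7 and 14. Without single libraries the counts ranged from 5 to 432 for rises and from 9 to 2215 for falls, the highest without IR 1. Median of ratios without IR 1, chosen after seeing the data, gave 1093 and 728. Replicate numbers are shared by the groups, and a replicate block gave 183 and 889 calls, 640 of the 699 among them. The other alternatives stayed within 1.5 times of both counts. Deviations of same-numbered libraries correlated at 0.408, -0.324 and 0.502, so the numbers were not taken as pairing, and not every library correlated best with its own number.

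Of 158 named calls 149 were kept with a pseudocount of 0.1, 122 with no filter, 96 with quantile normalization, 102 with median-of-ratios scaling, 120 with all 9 libraries and 123 of 154 with the highest row per symbol. Directions turned in few genes, all but Npc2 uncalled. Quantile normalization gave log2 changes of -0.035 for Hspa8 and -0.063 for Slc17a7, and median-of-ratios scaling gave 0.062 for Gria1 and 0.095 for Vegfa (0.162 also without IR 1). Without single libraries Aif1 ranged from -0.039 to 0.116, Tmem119 from -0.112 to 0.275, Slc17a7 from -0.134 to 0.183, Gria1 from -0.414 to 0.0885 and Vegfa from -0.209 to 0.0401. Npc2 changed by 0.043 with the highest row. The cause was not tested. Unknown depth limits what can be said of weakly expressed genes.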

Other observations

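Genes whose symbols begin like those of many motile cilium genes (such as Cfap, Dnah, Rsph and Spag) were looked at after several of them had been seen among the falls. Motile cilia are the beating hairs of the ependyma that lines the ventricles. The prefixes also take in genes with other roles, among them Spag5, Spag7 and Spag9. Of 45 tested, limma called 8 lower, 20 lay below Sham in every IR library and 1 above, and the median log2 change was -0.35. Over all genes 5.7% were called lower, 27.0% lay below and 7.61% above, and the median was -0.21. Spag6l, of the central apparatus of the cilium, had 0.0765, 0.194 and 0.3803 TPM in IR, against 3.67, 2.83 and 3.91 TPM in Sham (adjusted p = 0.00716, log2 change -1.88, SE 0.17). The outer dynein arm gene Dnah9 had 5.17, 5.73 and 4.25 TPM in IR, against 11.1, 13.2 and 13.4 TPM in Sham (adjusted p = 0.0136, log2 change -1.17, SE 0.15), while Dnah12 was listed at 0 in every IR library and at 5.81, 1.22 and 2.05 TPM in Sham. Cfap43, Rsph1, Rsph14, Dnaaf9 and Spag7 made up the 8. Of the 8 calls named here, 8 remained without IR 1, 0 without IR 2, 1 without IR 3, 3 without Sham 1, 1 without Sham 2 and 2 without Sham 3 (adjusted p up to 0.175). Cfap43, Rsph1 and Spag7 did not pass with median-of-ratios scaling, and Dnah9 did not pass with the highest row per symbol.

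Of 22 cell cycle genes 2 fell (9.09%, against 5.7% of all genes). The proliferation marker gene Mki67 had 1.56, 1.09 and 0.756 TPM in IR, against 3.596, 3.63 and 2.98 TPM in Sham (adjusted p = 0.0272, log2 change -1.06, SE 0.18), and the mitotic kinase gene Aurka had 12.5, 9.696 and 9.93 TPM in IR, against 20.3, 24.99 and 21.5 TPM in Sham (adjusted p = 0.0189, log2 change -0.99, SE 0.15). Both lay lower in every IR library. In protein synthesis the initiation factor gene Eif2s1 had 24.8, 24.8 and 26.5 TPM in IR, against 52.1, 43.96 and 45.2 TPM in Sham (adjusted p = 0.0153, log2 change -0.87, SE 0.11), and Eif4ebp1, which encodes a repressor of cap-dependent initiation, had 26.6, 23.7 and 27.9 TPM in IR, against 16.9, 13.01 and 15.6 TPM in Sham (adjusted p = 0.0313, log2 change 0.75, SE 0.14). They moved in opposite directions. The deubiquitinase gene Usp9x had 16.5, 11.1 and 11.3 TPM in IR, against 24.2, 26.1 and 25.5 TPM in Sham (adjusted p = 0.0296, log2 change -0.93, SE 0.17). The calls of all 5 genes were kept without IR 1 and lost without IR 2, IR 3, Sham 1 or Sham 2 (adjusted p up to 0.1325), and Mki67, Eif4ebp1 and Usp9x were also lost without Sham 3.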
